A study of Saccharum hybrid cultivar with 68 samples.

Results

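The miR159 and miR319 families of microRNA (miRNA, a short RNA that guides cleavage or repression of matching mRNA) were followed in stem and leaf of the sugarcane genotypes ROC22 and GT86-887 while the cane was accumulating sucrose. Members were taken by name, as every small RNA entry whose name begins with miR159- or miR319-. This gave 6 of 844 entries, named miR159-x, miR159-y, miR159-z, miR319-x, miR319-y and miR319-z. The entries miR319-x and miR319-z were sparse, with 170 and 229 counts summed over all 24 small RNA libraries, whereas the other 4 had between 4565 and 191193. In the degradome, a library of the 5′ ends exposed when an mRNA is cut, the 6 entries had 4 of the 871 deposited pairs of a miRNA and a target transcript. These pairs named 4 of the 100182 assembled transcripts (unigenes) of the mRNA set.

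Small RNA was sequenced in 24 libraries, with 3 each for late ROC22 stem, early ROC22 stem, late GT86-887 stem, early GT86-887 stem, late ROC22 leaf, early ROC22 leaf, late GT86-887 leaf and early GT86-887 leaf. Messenger RNA was sequenced in 36 libraries, 3 for every combination of genotype, tissue and stage, where a middle stage was added between early and late. The degradome had 8 libraries, 1 for each genotype, tissue and title code. All are Saccharum hybrid plants that differ in sucrose content per the series; the sources used here do not say which genotype holds more. Since no label ties a library to a plant of its own, the p-values cover the spread between libraries, and that spread may be technical. Unigenes carry identifiers without gene names, so marker genes could not be used to check the tissue labels.

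miR159 and miR319 are related families that are old in land plants. In Arabidopsis, miR159 acts on mRNAs of GAMYB-like MYB transcription factors, which mediate gibberellin responses, and miR319 acts on mRNAs of a class of TCP transcription factors that restrain cell division in growing leaves. A miRNA is cut out of a hairpin as a duplex, of which 1 strand usually guides silencing and the other is mostly degraded. In grasses miR319 has been linked to leaf width and stress tolerance.

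The sequences of the 6 entries are shown because the names alone hide which of them could share reads or targets. They are given as deposited, 5′ to 3′ in DNA letters, with bases 2 to 8 (called the seed here) in capitals.
miR159-x: gAGCTCCTatcattccaatga
miR159-y: tTTGGATTgaagggagctct
miR159-z: tTTGGATTgaagggagctctgtt
miR319-x: aGAGCTCTcttcagtccactc
miR319-y: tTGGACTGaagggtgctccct
miR319-z: aGCTGCCGactcattcactca
The entries miR159-y and miR159-z have the same seed and the same first 20 bases, and miR159-z carries 3 further bases. Apart from each other, they shared this seed with 1 more entry of the table, miR6138-z, which had 7 counts. The families are alike but do not share a seed: with miR319-y set 1 base along miR159-y, 16 of 19 opposed bases were identical, and the differences were T7C, A15T and T20C (miR159-y base, position from its first base, miR319-y base).

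The entries miR159-x and miR319-x read like opposite strands of such duplexes. Set against miR159-y, miR159-x formed 15 Watson-Crick pairs and 1 G-U pair over 19 opposed bases. Set against miR319-y, miR319-x also formed 15 Watson-Crick pairs and 1 G-U pair over 19 bases. Against miR159-y, however, miR319-x formed 16 and 2 over 20 bases, so its sequence does not tie it to miR319-y alone. Likewise miR159-x formed 14 and 1 over 18 bases against miR319-y, so its sequence does not tie it to miR159-y alone. The entry miR319-z resembled none of the others, with at most 8 of 20 aligned bases shared. It had a near copy of the same seed outside both families, a predicted entry with no miR number that differed by T19C (miR319-z base first) and held 52579 counts.
Near copy of miR319-z: aGCTGCCGactcattcaccca

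Depth and makeup of the small RNA libraries bear on every level below. Counts per library summed to 183654 to 1374497 in stem and 640674 to 1632186 in leaf, and TMM scaling factors, which even out libraries filled by a few entries, were 0.853 to 3.37 in stem and 0.533 to 0.875 in leaf. In stem they were 0.853 to 2.09 at the late stage and 1.21 to 3.37 at the early stage. Levels are given in CPM, counts per library scaled to a common total, after TMM scaling, and "rose", "fell", "higher" and "lower" are used of an adjusted p below 0.05. Unless another test is named, p-values come from edgeR's quasi-likelihood test with Benjamini-Hochberg adjustment over all entries or unigenes tested. Library 3 of late ROC22 stem stood apart: its log levels correlated with the other late ROC22 stem libraries at a mean r of 0.882 and with the early ROC22 stem libraries at 0.938, while libraries 1 and 2 correlated at 0.952. The main results that rest on it are given with and without it, and others as ranges over refits with 1 library left out.

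Between tissues the families went opposite ways, with miR319 higher in stem and miR159 higher in leaf. The miR319-y level was 8437 CPM in the lowest stem library, 17873 at the median and 44723 in the highest, against 294, 481 and 1051 CPM in leaf. No stem library overlapped with leaf. The change was 5.27 ± 0.27 on the log2 scale (SE, n = 12 and 12 libraries), or 38.5-fold, at an adjusted p of 3.23e-18. Among 285 entries ranked by mean level, miR319-y was number 6 in stem and number 43 in leaf. RNA was taken from whole tissue, where fewer cells of a type and less RNA per cell cannot be told apart.

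The sparse miR319 entries had more counts in stem. All 12 stem libraries held miR319-x, at 5 to 45 counts, while 3 of 12 leaf libraries held 1 count each. The summed counts gave a stem to leaf ratio of 46.3 on TMM-scaled totals, with an exact 95% interval of 15.6 to 227 that covers counting error only. The miR319-z level was 5.08, 18.7 and 41.5 CPM (lowest, median, highest) in stem, against 0, 4.71 and 15.8 CPM in leaf, so the tissues overlapped. Its summed counts, 187 in stem and 42 in leaf, gave a ratio of 3.70 on TMM-scaled totals (exact 95% interval of 2.64 to 5.31, counting error only). Both entries passed the filter on low counts through stem and failed it in leaf alone, so their fitted changes between tissues, 5.37 for miR319-x and 1.94 for miR319-z on the log2 scale, are a description with no test. The near copy of miR319-z lay at 1355, 3750 and 15611 CPM in stem, against 234, 421 and 681 CPM in leaf. The miR319-z counts were 0.377% of those of this near copy in stem and 1.40% in leaf, and whether the near copy's reads contribute to miR319-z was not tested.

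All 3 miR159 entries were lower in stem. The miR159-y level was 676, 1168 and 9276 CPM (lowest, median, highest) in stem, against 6131, 10281 and 18646 CPM in leaf. The tissues overlapped only through late ROC22 stem libraries 1 and 2, and the change was -2.85 ± 0.24 on the log2 scale (adjusted p = 1.27e-12). The miR159-x level was 707, 824 and 1520 CPM in stem, against 2324, 4003 and 8289 CPM in leaf, with no overlap after TMM scaling. In CPM without TMM scaling it overlapped, at 616, 1341 and 3175 in stem against 1571, 2669 and 5406 in leaf. Its change of -2.23 ± 0.20 had an adjusted p of 6.34e-12. The miR159-z level was 55.8, 105 and 663 CPM in stem, against 227, 373 and 626 CPM in leaf. The tissues overlapped, and the change was -1.50 ± 0.24 (adjusted p = 1.30e-06).

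**Figure D1:**
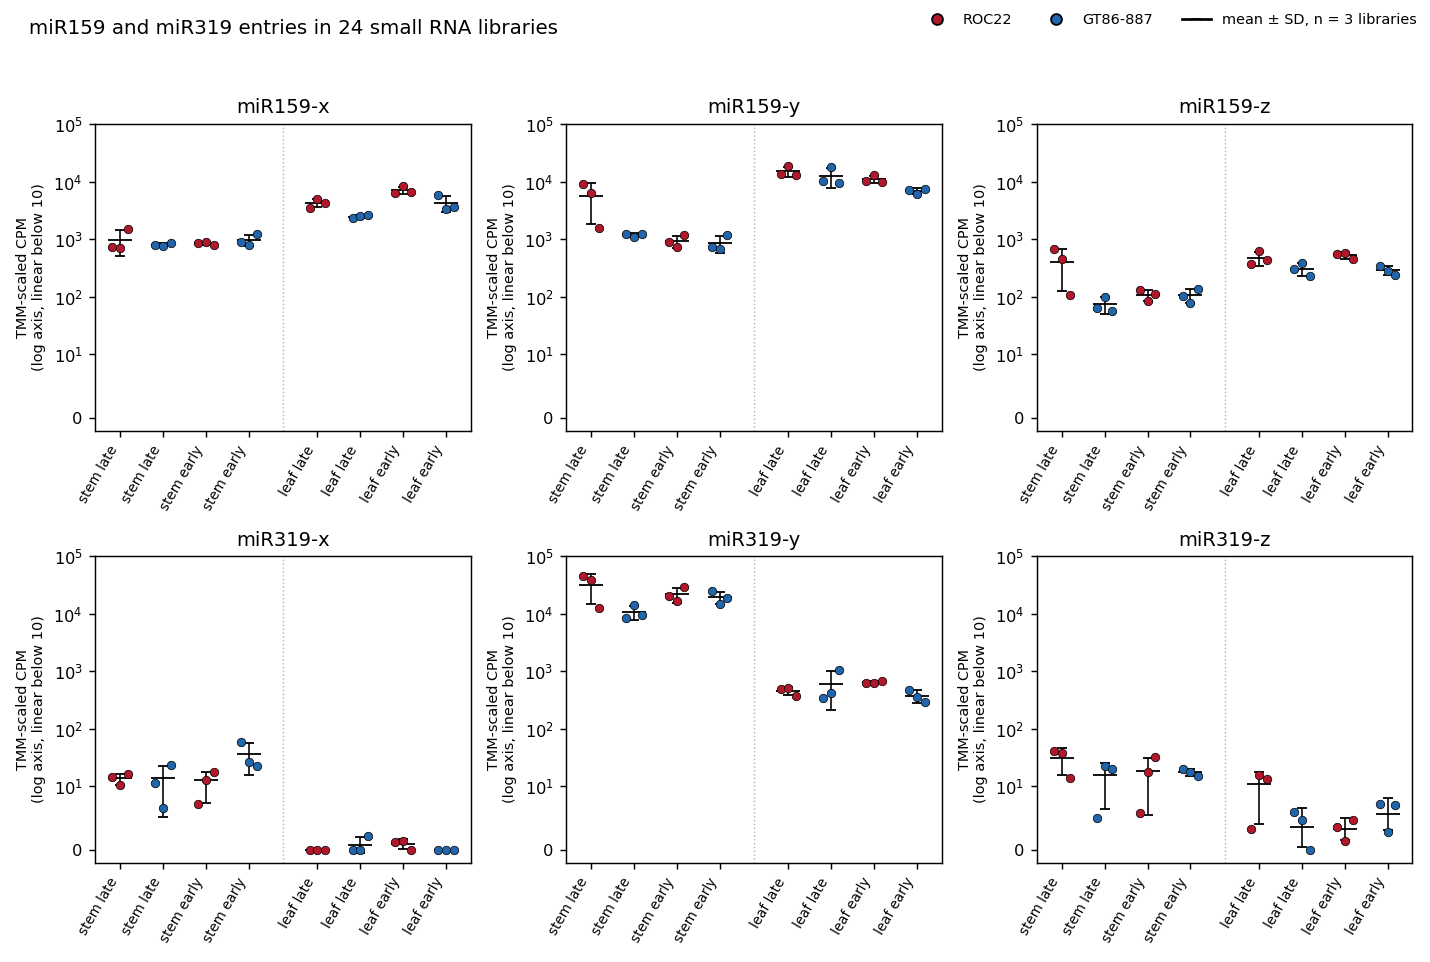
TMM-scaled CPM of each entry (log axis, linear below 10) in the 24 small RNA libraries, by tissue, stage and genotype; points are libraries, bars the mean ± SD of 3. The stem points of miR319-y (8437 to 44723 CPM) all lie above its leaf points (294 to 1051 CPM). On this scale miR159-x lies lower in every stem library than in any leaf library, which does not hold without TMM scaling.

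Tissue differences were the rule in these libraries: 205 of 285 entries passed (71.9%; 41.4% higher in stem and 30.5% lower), around a median of 0.61. Passing is thus near the background, and the sizes are read against it. Without TMM scaling the median change of all entries was 1.82, so changes were also taken relative to the median. On that footing miR319-y was 4.66 above the median with TMM and 4.62 without, miR159-y stood at -3.46 and -3.50 to it, miR159-x at -2.84 and -2.71, and miR159-z at -2.10 and -2.17. In absolute terms with plain library totals, miR319-y changed by 6.44, miR159-y by -1.68 and miR159-x by -0.89. The entry miR159-z then no longer passed (-0.34, adjusted p = 0.1025). As a share of library counts, miR159 entries made up 0.174% to 0.909% in stem and 0.644% to 1.54% in leaf, and miR319 entries 0.886% to 7.75% in stem and 0.0220% to 0.0768% in leaf.

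A ratio within a library does not depend on scaling between libraries. Counts of miR319-y over those of the summed miR159 entries were 3.94, 7.39 and 14.4 (lowest, median, highest) in stem, against 0.0200, 0.0281 and 0.0844 in leaf. The mean difference was 7.84 on the log2 scale, or 229-fold. In a two-sided permutation test within genotype and stage (100000 resamples) p was 1e-05, the smallest these resamples can give, and 7.5e-05 after adjustment over the 15 ratio comparisons made. In stem miR319-y outnumbered the whole miR159 family in 12 of 12 libraries, and in leaf in none of 12.

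The contrast between tissues was also taken in each genotype at each stage for the 4 abundant entries. The miR319-y level was 69.7-fold higher in stem in late ROC22 (54.7% of all entries passed in that comparison), 34.1-fold in early ROC22 (52.6% passed), 17.7-fold in late GT86-887 (49.5%) and 52.2-fold in early GT86-887 (48.4%). It passed in each, as did miR159-x and miR159-y. The entry miR159-z passed in all but late ROC22, where its change was -0.22 ± 0.47 (adjusted p = 0.717). Its call in early GT86-887 (-1.45 ± 0.48, adjusted p = 0.0136) was lost without early stem library 1 or 2 or early leaf library 1 (adjusted p = 0.0634 to 0.0833) and with no filter on low counts (-1.36, adjusted p = 0.0537). The miR159-y call in late ROC22 was lost without stem library 3 (-0.92, adjusted p = 0.0540) or leaf library 2 (-1.16, adjusted p = 0.0584). With plain library totals the miR159-x call held in none of the 4 conditions (adjusted p = 0.0719 to 0.173), and the miR159-y call was lost in late ROC22 (0.0769). The miR159-z call then held only in late GT86-887, with -0.23 in early ROC22 (adjusted p = 0.610) and -0.13 in early GT86-887 (adjusted p = 0.802). None of the 4 entries passed for a tissue difference that depended on genotype (10.2% of all entries passed) or on stage (17.5% passed), although by stage miR319-y passed with plain library totals (-1.36, adjusted p = 0.0265) and miR159-y without late ROC22 stem library 3 (1.13, adjusted p = 0.0196).

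Late against early, miR159-y rose in both tissues, and over both genotypes no other entry of the families passed edgeR's test with TMM scaling, the filter on low counts and all entries and libraries kept. In stem its level was 9276, 6425 and 1572 CPM in late ROC22 and 1250, 1088 and 1256 CPM in late GT86-887, against 880, 729 and 1173 CPM in early ROC22 and 722, 676 and 1164 CPM in early GT86-887. Late libraries 1 and 2 of ROC22 were far above the rest, and library 3 was not. The mean change over both genotypes was 1.45 ± 0.36 (SE, n = 6 and 6 libraries) on the log2 scale at an adjusted p of 0.0213. It was the only 1 of the 6 entries to pass, where 7.91% of all 215 entries tested did. Without TMM scaling it was 0.60 (adjusted p = 0.213), beside a median of all entries of -0.71, so relative to the median it was 1.31 without TMM and 1.40 with it. The call was also lost when early ROC22 library 2, late ROC22 library 1, early GT86-887 library 1 or late GT86-887 library 2 was left out (adjusted p = 0.0531 to 0.0662).

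By size the stem change was larger in ROC22. In ROC22 miR159-y changed by 2.30 ± 0.52 (adjusted p = 0.0150, with 6.98% of entries passing), and in GT86-887 by 0.60 ± 0.50 (adjusted p = 0.567). In GT86-887 edgeR called 0 of 215 entries, with 27 at an unadjusted p under 0.05, and DESeq2 called 4. The difference between the genotypes, 1.70 ± 0.71, had an adjusted p of 0.223, and no entry passed that test (0 of 215, with 35 at an unadjusted p under 0.05; DESeq2 also called 0). Without late ROC22 library 3 the difference was 2.43 and passed (adjusted p = 0.00398). The ROC22 call itself was lost without early library 1 or 2 or late library 1 or 2 (changes of 1.81 to 2.46, adjusted p = 0.0543 to 0.108), and with plain library totals (1.23, adjusted p = 0.149). In ROC22 stem miR159-z changed by 1.58 ± 0.54 (adjusted p = 0.0733). It passed there with DESeq2 (1.5, adjusted p = 0.0330), with the abundant entries miR166-y and miR396-x left out (1.80, adjusted p = 0.0478) and without late library 3 (2.20, adjusted p = 0.000904).

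In leaf miR159-y rose by less and more evenly. Its level was 13715, 18646 and 13225 CPM in late ROC22 and 10174, 18220 and 9644 CPM in late GT86-887, against 10388, 12958 and 10056 CPM in early ROC22 and 7305, 6131 and 7403 CPM in early GT86-887. Within each genotype every late library was above every early one. The change was 0.79 ± 0.23 (adjusted p = 0.0110), 1 of 4 entries tested, where 35.6% of all 180 passed. It held when any 1 of the 12 libraries was left out (0.61 to 0.98). In GT86-887 leaf it was 1.04 ± 0.33 (adjusted p = 0.0203, with 28.9% of entries passing; 0.74 and 0.0789 without late library 2, 0.90 and 0.0528 with no filter on low counts), and in ROC22 leaf 0.54 ± 0.33 (adjusted p = 0.284, with 14.4% of entries passing).

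A near-complement of miR159-y, miR159-x, did not rise with it. In leaf miR159-x was at 3557, 4928 and 4339 CPM in late ROC22 and 2324, 2499 and 2591 CPM in late GT86-887, against 6435, 8289 and 6502 CPM in early ROC22 and 5776, 3308 and 3667 CPM in early GT86-887. Within each genotype all late libraries were below all early ones. The change of -0.58 ± 0.23 missed the threshold at an adjusted p of 0.0621, and ranged from -0.50 to -0.68 with adjusted p-values of 0.000683 to 0.116 over the alternatives. It passed with DESeq2, with RLE factors (the size factors of DESeq2 used in edgeR), with plain library totals, with no filter and with miR166-y and miR396-x left out. In stem the miR159-x change was -0.04 ± 0.33 (adjusted p = 0.973).

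The balance between these entries moved the same way in both tissues. Counts of miR159-y over miR159-x were 12.8, 9.08 and 1.03 in late ROC22 stem and 1.55, 1.41 and 1.49 in late GT86-887 stem, against 1.04, 0.813 and 1.46 in early ROC22 stem and 0.815, 0.838 and 0.958 in early GT86-887 stem. The mean difference was 1.49 on the log2 scale (two-sided exact permutation test within genotype, n = 6 and 6, adjusted p = 0.0321). It was lost in 9 of the 12 tests with 1 stem library left out (1.14 to 2.05), and held only without 1 of the 3 late ROC22 libraries. In leaf the ratio was 3.85, 3.78 and 3.05 in late ROC22 and 4.38, 7.29 and 3.72 in late GT86-887, against 1.61, 1.56 and 1.55 in early ROC22 and 1.26, 1.85 and 2.02 in early GT86-887. Every late leaf library was above every early one, with a mean difference of 1.36 (exact permutation test, adjusted p = 0.0125, where the smallest unadjusted p of 400 splits is 0.005).

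The longer form miR159-z lost ground to miR159-y with time. Counts of miR159-z per miR159-y count were 0.0451 to 0.0924 in late stem, against 0.0954 to 0.1496 in early stem, and the difference was -0.90 on the log2 scale (exact permutation test, adjusted p = 0.0125). In leaf they were 0.0210 to 0.0336 at the late stage, against 0.0320 to 0.0527 at the early stage, a difference of -0.68 (exact permutation test, adjusted p = 0.0125). Stages did not overlap in stem and overlapped slightly in leaf. Between tissues the ratio was 1.35 higher on the log2 scale in stem (permutation test, adjusted p = 7.5e-05). As a level, miR159-z changed by 0.60 ± 0.38 in stem (adjusted p = 0.382; -0.28 with plain totals, and 0.84 with an adjusted p of 0.0434 without late ROC22 library 3) and 0.12 ± 0.25 in leaf (adjusted p = 0.796).

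Over both genotypes the miR319 entries did not pass for stage in either tissue with TMM scaling. In stem miR319-y was at 44723, 38695 and 12611 CPM in late ROC22 and 8437, 14051 and 9484 CPM in late GT86-887, against 20068, 16592 and 29037 CPM in early ROC22 and 24614, 15091 and 19154 CPM in early GT86-887. Late libraries spread on both sides of the early ones, and the change was -0.26 ± 0.35 (adjusted p = 0.794; with plain library totals -1.12 and 0.0169, beside a median of all entries of -0.71). In leaf it was 0.26 ± 0.29 (adjusted p = 0.540), where late GT86-887 library 3 at 1051 CPM stood above libraries 1 and 2 at 340 and 420 CPM, and the change was -0.02 without it. In GT86-887 leaf alone it was 0.88 ± 0.41 (adjusted p = 0.125), which passed with DESeq2 (1.08, adjusted p = 0.0197) and RLE factors (1.08, adjusted p = 0.0479). Relative to the summed miR159 entries, though, miR319-y was lower in late stem, with counts per miR159 count of 3.94 to 7.17 late, against 7.62 to 14.4 early (-1.20 on the log2 scale, exact permutation test, n = 6 and 6, adjusted p = 0.0125). In leaf the same ratio differed by -0.22 (exact permutation test, adjusted p = 0.688), and by -0.54 without late GT86-887 library 3 (adjusted p = 0.0375). In stem miR319-x changed by -0.74 ± 0.46 and miR319-z by 0.21 ± 0.49 (adjusted p = 0.382 and 0.892), and both failed the leaf filter on low counts. With its near copy summed into miR319-z, the sum changed by 1.46 and passed (adjusted p = 0.0294). In stem the near copy had 49571 counts against 187 of miR319-z, so that change is mostly that of the near copy.

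**Figure D2:**
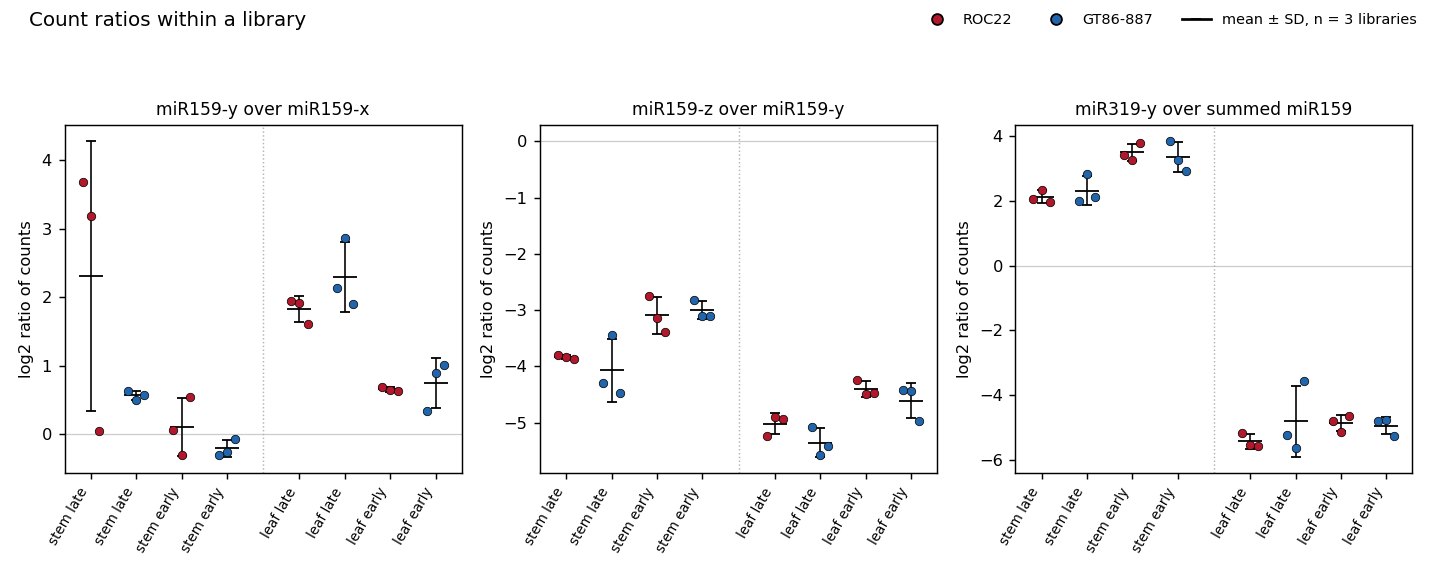
Log2 ratios of counts within each small RNA library, by tissue, stage and genotype; points are libraries, bars the mean ± SD of 3. Late points lie above early points for miR159-y over miR159-x in leaf, and below them for miR319-y over summed miR159 in stem; late ROC22 stem library 3 is the low point of the first panel's leftmost group.

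ROC22 against GT86-887, the miR159 entries were higher in ROC22 leaf. There miR159-x was higher by 0.90 ± 0.24 (SE, n = 6 and 6 libraries, adjusted p = 0.00479), or 1.87-fold, miR159-z by 0.86 ± 0.25 (adjusted p = 0.0108) and miR159-y by 0.61 ± 0.23 (adjusted p = 0.0401). That is 3 of 4 entries tested, where 41.7% of 180 entries passed, and the median change was 0.12. Late, miR159-x was 3557 to 4928 CPM in ROC22 and 2324 to 2591 CPM in GT86-887, with no overlap. Early, it was 6435 to 8289 CPM in ROC22 and 3308 to 5776 CPM in GT86-887, also with no overlap. The miR159-z level averaged 475 ± 135 CPM in late ROC22 and 303 ± 76.9 CPM in late GT86-887 (SD, n = 3 each), and 525 ± 64.7 CPM in early ROC22 and 287 ± 52.6 CPM in early GT86-887. The entry miR319-y differed by 0.33 ± 0.29 (adjusted p = 0.358).

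These leaf calls differed in how firmly they stood. The miR159-x call was lost without early ROC22 library 3 (0.69, adjusted p = 0.0521) and held without any other. The miR159-z call was lost without early ROC22 library 1 or 3, early GT86-887 library 1 or 3 or late GT86-887 library 3 (0.53 to 0.69, adjusted p = 0.0634 to 0.106). The miR159-y call held only without early GT86-887 library 2 or late GT86-887 library 1 or 2, with adjusted p up to 0.469 and a change down to 0.24 (without late GT86-887 library 3). It was also lost with RLE factors, plain library totals, no filter, or miR166-y and miR396-x left out (0.43 to 0.46, adjusted p = 0.0676 to 0.228), and the miR159-z call with no filter (0.73, adjusted p = 0.0659). At a given stage none of the 4 passed in leaf with edgeR (32.2% of all entries passed at the late stage and 17.2% at the early stage). Several lay close to the threshold. Early, miR159-x (0.96 ± 0.33, adjusted p = 0.0529), miR159-z (1.03 ± 0.36, adjusted p = 0.0529) and miR159-y (0.86 ± 0.33, adjusted p = 0.0731) all passed with DESeq2 (adjusted p = 1.28e-05, 0.000174 and 0.0199) and with RLE factors (0.0177, 0.0209 and 0.0475). Late, miR159-x (0.84 ± 0.33, adjusted p = 0.0604) passed with DESeq2 (0.62, adjusted p = 0.00391).

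In stem the genotypes differed at the late stage. There miR159-y was higher by 1.78 ± 0.51 in ROC22 (adjusted p = 0.0133) and miR159-z by 1.94 ± 0.55 (adjusted p = 0.0118), 2 of the 4 abundant entries, where 30.7% of 215 entries passed. The miR159-z level was 663, 451 and 107 CPM in late ROC22 and 63.0, 100.2 and 55.8 CPM in late GT86-887. As for miR159-y, libraries 1 and 2 of late ROC22 were high and library 3 was close to GT86-887. At the early stage the same entries differed by 0.08 ± 0.50 and 0.00 ± 0.54 (adjusted p = 0.940 and 0.9995), and none of the 4 passed, where 17.7% of entries did. Without late ROC22 library 3 the late differences were 2.52 for miR159-y and 2.73 for miR159-z, and miR319-y, at 1.08 ± 0.50 (adjusted p = 0.117) with all libraries, passed as well (1.78, adjusted p = 0.00130). With all libraries miR319-y also passed with DESeq2 (1.10, adjusted p = 0.0403), with plain library totals (1.55, adjusted p = 0.00647) and with miR166-y and miR396-x left out (1.43, adjusted p = 0.0403). The miR159-y call was lost without late ROC22 library 1 or late GT86-887 library 3 (adjusted p = 0.0692 and 0.0514), and the miR159-z call without late ROC22 library 1 or late GT86-887 library 1 or 3 (0.0528 to 0.0624).

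Taken over both stages, miR159-y was higher by 0.93 ± 0.36 in ROC22 stem (adjusted p = 0.0482), 1 of 6 entries where 34.0% of 215 passed. That call was lost in 8 of 12 fits with 1 library left out, holding only without early ROC22 library 1 or 2, late ROC22 library 3 or early GT86-887 library 3. The entries miR159-z (0.97 ± 0.38, adjusted p = 0.0545), miR319-y (0.59 ± 0.35, adjusted p = 0.207) and miR159-x (-0.12 ± 0.33, adjusted p = 0.845) did not pass. With 1 library left out, miR159-z passed in 4 refits (0.75 to 1.37 over all 12). In such refits miR319-y passed in 1 (0.48 to 0.96 over all 12, adjusted p down to 0.00655). The miR159-z difference did pass with DESeq2, RLE factors, plain library totals, no filter, and miR166-y and miR396-x left out (1.005 to 1.57, adjusted p = 0.00265 to 0.0424). Without TMM scaling the median of all entries was 0.68 in this comparison, against 0.00 with it, miR319-y then passed (1.21, adjusted p = 0.00221) and miR159-x turned to 0.64 without passing. Relative to the median, miR319-y was 0.59 with TMM and 0.54 without. The ratio of miR319-y to summed miR159 differed by -0.02 between ROC22 and GT86-887 stem (exact permutation test, n = 6 and 6, adjusted p = 0.925). With all libraries, genotype by stage gave no pass for any entry of the families in stem or leaf, where 6.11% of leaf entries passed. With 1 stem library left out, miR159-y, miR159-z and miR319-y each passed in 1 refit (adjusted p = 0.00398, 0.00398 and 0.0261). Their changes then reached up to 2.43, 2.72 and 1.66.

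**Figure D3:**
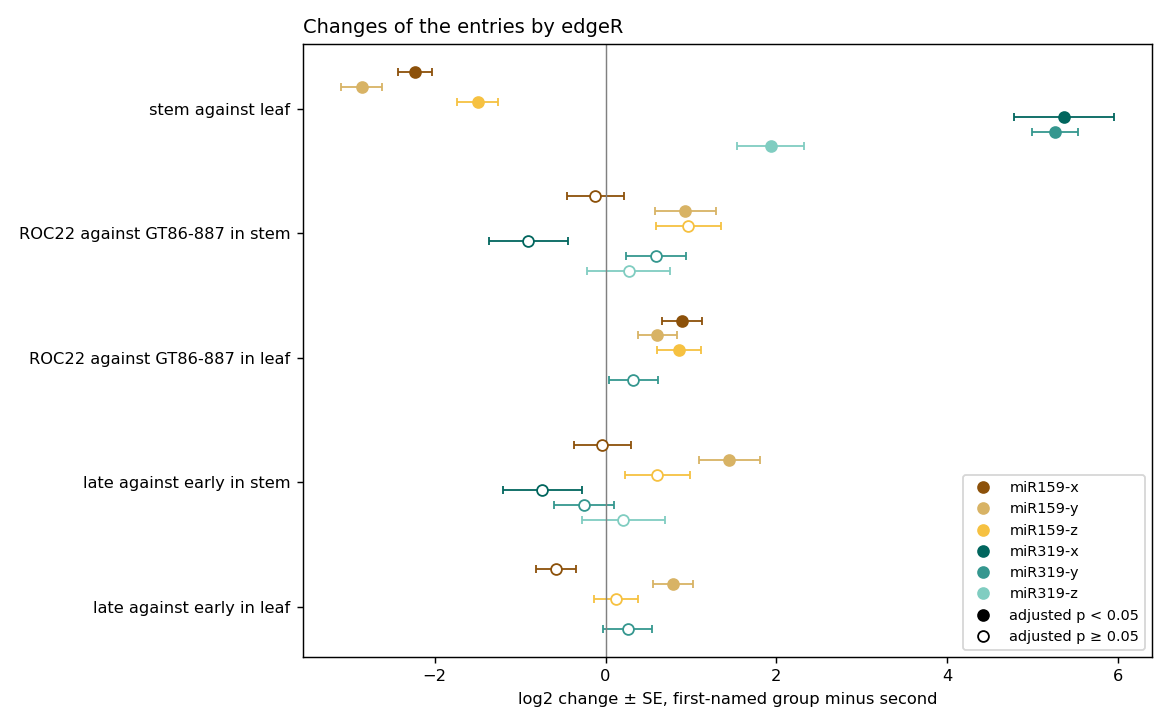
Log2 change ± SE of each entry in 5 comparisons, first-named group minus second, from edgeR; filled points have an adjusted p below 0.05. The stem-leaf changes run from -2.85 to 5.37 and those by genotype or stage from -0.91 to 1.45, where only miR159 entries are filled. The stem-leaf changes of miR319-x and miR319-z are of entries that passed the filter on low counts through stem.

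Other conserved families that target transcription factors, a list of 16 families such as miR156, miR160 and miR172, had 37 entries, of which 33 were tested between tissues. Of these, 17 were higher and 13 lower in stem (41.4% and 30.5% of all entries), with a median change of 0.57, near that of all entries. In stem 1 of 31 was higher and 1 lower late against early (7.91% of all entries passed). By genotype in stem, 6 were higher and 3 lower in ROC22 (34.0% passed). In leaf 2 of 30 were higher and 2 lower late against early (35.6% passed), and 8 were higher and 6 lower in ROC22 (41.7% passed). Of 6 tested entries of the families that target the small RNA machinery (miR162, miR168 and miR403), 4 were higher and 1 lower in stem, where 71.9% of all entries passed.

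The entries most like each member were sought by Pearson correlation of log2(CPM + 1) over libraries, given as a description. Points share the library, and over both tissues the correlation follows the tissue difference. Over 24 libraries the closest to miR159-x was miR156-x (r = 0.949), the closest numbered entry to miR159-y was miR166-y (0.910), and the closest to miR319-y was miR6478-z (0.923). Within the 12 stem libraries the closest to both miR159-y and miR159-z was miR444-y (0.960 and 0.939), and the closest to miR319-y was miR5564-x (0.896). Within the 12 leaf libraries the closest to miR159-x was also miR5564-x (0.932), and to miR159-y miR529-y (0.838). Among the members themselves, miR159-y and miR159-z correlated at 0.886 in stem and 0.618 in leaf, while miR159-y and miR159-x did so at -0.283 in stem and 0.00688 in leaf.

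The degradome held few fragments for these families. The most frequent pair was miR159-x with unigene c140872.graph_c1, found in 4 of 8 libraries, all from leaf. It had 15 tags in the ROC22 leaf library with the late title code and 2 in that with the early code, and 3 and 2 in the GT86-887 leaf libraries with the same codes. The exact 95% intervals, which cover counting error only, were 8.40 to 24.7 for 15 tags and 0.242 to 7.22 for 2 tags. Titles and growth phase labels disagree for 4 degradome libraries, so no stage comparison was made, and with 1 library per combination there is no replicate check. Of all 871 pairs, 27.6% had tags in 4 or more libraries and the median was 2.

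The miR319 pairs were rarer still. The pair of miR319-y with c127171.graph_c2 had tags only in ROC22 stem, 4 in the library with the late code and 1 in that with the early code. The pair of miR319-z with c122865.graph_c0 had 2 tags in GT86-887 stem and 2 in GT86-887 leaf, both with the late code. The same unigene was paired with miR8752-z in all 8 libraries, at 5 to 8 tags in stem and 27 to 58 tags in leaf. The pair of miR319-x with c112491.graph_c0 had 2 tags in 1 library, ROC22 leaf with the late code. Of all pairs, 40.6% had tags in 1 library only. No pair of miR159-y or miR159-z, which share a seed, was listed. Over all small RNA libraries miR159-y had 103048 counts and miR159-z 4565, against 44060 for miR159-x. Only the miR159-x pair reached 5 tags in any library.

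The mRNA levels of these 4 unigenes differed widely. The files give them no gene name, so whether any encodes a MYB or TCP factor is not known here. By mean FPKM, the authors' count per length and depth, c140872.graph_c1 was number 3022 of 100182 unigenes in stem (45.5) and number 217 in leaf (369), and c122865.graph_c0 was number 826 (125) and number 689 (156.4). The others were low, c127171.graph_c2 at 1.03 FPKM in stem and 0.313 in leaf and c112491.graph_c0 at 1.45 and 0.407.

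The unigene paired with miR159-x, c140872.graph_c1, was lower in stem by -3.38 ± 0.11 on the log2 scale (SE, n = 18 and 18 libraries, adjusted p = 7.81e-22). It had 23.8, 74.2 and 170 CPM (lowest, median, highest) in stem, against 444.1, 668 and 1050 CPM in leaf, with no overlap. As for miR159-x itself, the higher level was in leaf, where the degradome tags also were. Over the whole degradome, however, every leaf library held more pairs with tags (313 to 407) than any stem library (194 to 249). Whether the leaf tags of this pair go beyond that was not tested. The unigene paired with miR319-z, c122865.graph_c0, was also lower in stem as a mean over genotypes and stages (-0.49 ± 0.09, adjusted p = 1.35e-05), where 74.0% of 42119 unigenes passed between tissues. In GT86-887 it averaged 198, 175 and 133 CPM in stem (early, middle and late), against 387, 304 and 398 CPM in leaf. In ROC22 it averaged 327, 196 and 268 CPM in stem, against 231, 177 and 313 CPM in leaf, so there the stem mean lay below leaf only at the late stage. The other two had more counts in stem, c127171.graph_c2 with 261 in stem and 76 in leaf and c112491.graph_c0 with 334 in stem and 88 in leaf. They passed the filter on low counts through stem and failed it in leaf alone, so their fitted changes of 1.29 and 1.65 on the log2 scale are a description with no test.

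By stage, c140872.graph_c1 went opposite ways in the tissues. In stem it averaged 79.1 ± 18.0, 31.1 ± 6.40 and 42.3 ± 11.5 CPM in ROC22 (early, middle and late; SD, n = 3 each) and 155 ± 24.6, 63.3 ± 30.4 and 76.8 ± 4.54 CPM in GT86-887. In leaf it averaged 450.3 ± 8.62, 665 ± 4.81 and 722 ± 115 CPM in ROC22 and 579.8 ± 29.8, 857 ± 133 and 923 ± 124 CPM in GT86-887. Late against early it fell by 0.98 ± 0.22 in stem (adjusted p = 0.00353) and rose by 0.70 ± 0.10 in leaf (adjusted p = 2.90e-05). In stem c140872.graph_c1 and c112491.graph_c0 had an adjusted p below 0.05, where 29.1% of 36199 unigenes did. There c122865.graph_c0 did not pass (-0.46 ± 0.17, adjusted p = 0.0537). In leaf 1 of 2 tested passed, where 39.8% of 37678 did. Of the others in stem, c112491.graph_c0 rose by 0.72 ± 0.24 (adjusted p = 0.0322), on 8 to 38 counts per stem library. That call was lost without early ROC22 library 2 or 3, late ROC22 library 2, or library 1 or 3 of early or late GT86-887 (0.0600 to 0.0786). The unigene c127171.graph_c2 had 3 to 35 counts per stem library. At the early stage it had only 0.225 to 0.404 CPM in ROC22 stem and 0.136 to 0.351 CPM in GT86-887 stem. It passed the filter on low counts through middle and late libraries, so its fitted change of 1.37 on the log2 scale is a description with no test.

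By genotype, c140872.graph_c1 was lower in ROC22 in both tissues, by -0.99 ± 0.18 in stem (n = 9 and 9 libraries, adjusted p = 0.000246) and -0.34 ± 0.08 in leaf (adjusted p = 0.00165). The entry miR159-x was higher in ROC22 leaf but did not pass in stem (-0.12 ± 0.33, adjusted p = 0.845). In leaf the early libraries of c140872.graph_c1 were at 460.1, 444.1 and 447 CPM in ROC22 and 613, 572 and 555 CPM in GT86-887, without overlap. Its late leaf libraries overlapped, at 642 to 854 CPM in ROC22 and 803 to 1050 CPM in GT86-887. The unigene paired with miR319-z, c122865.graph_c0, was higher in ROC22 stem by 0.60 ± 0.14 (adjusted p = 0.00176) and lower in ROC22 leaf by -0.60 ± 0.09 (adjusted p = 4.14e-05). At the early stage it was at 322, 325 and 334 CPM in ROC22 stem and 192, 208 and 192 CPM in GT86-887 stem, and at 210, 261 and 221 CPM in ROC22 leaf and 414, 419 and 327 CPM in GT86-887 leaf. The genotypes did not overlap in either tissue at that stage, nor in late stem or middle leaf. They overlapped in middle stem, at 180 to 221 CPM in ROC22 and 129 to 255 CPM in GT86-887. They also overlapped slightly in late leaf, at 256 to 363.5 CPM in ROC22 and 362.9 to 426 CPM in GT86-887. In ROC22 stem c112491.graph_c0 was also higher (0.94 ± 0.20, adjusted p = 0.000686), and c127171.graph_c2 did not pass (-0.60 ± 0.33, adjusted p = 0.134). This made 3 of 4 in stem, where 55.0% of unigenes passed, and 2 of 2 in leaf, where 51.5% did.

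Whether these differences depended on tissue was tested after the values above had been seen. The genotype difference of c122865.graph_c0 was higher in stem than in leaf by 1.26 ± 0.18 on the log2 scale (n = 36 libraries, adjusted p = 5.53e-06), and that of c140872.graph_c1 was lower by -0.59 ± 0.20 (adjusted p = 0.0342), 2 of 4 unigenes where 23.3% of all passed. The late-early difference of c140872.graph_c1 was lower in stem than in leaf by -1.63 ± 0.25 (adjusted p = 2.76e-05) and that of c122865.graph_c0 by -0.67 ± 0.22 (adjusted p = 0.0308), again 2 of 4, where 17.1% of all passed.

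**Figure D4:**
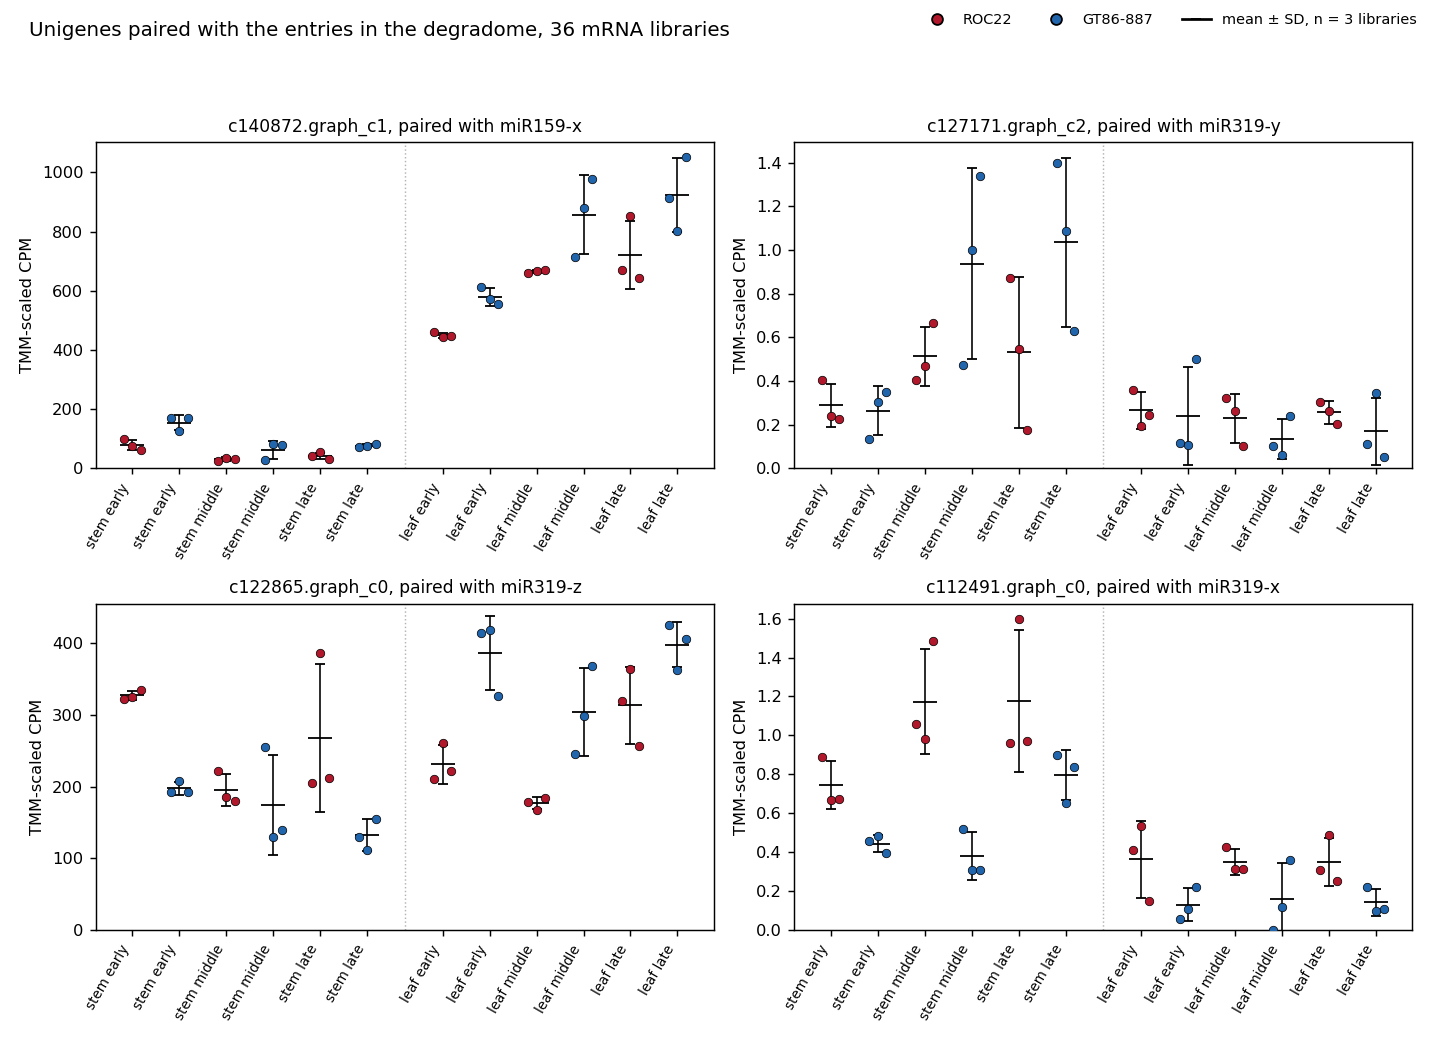
TMM-scaled CPM of the 4 unigenes paired with the entries in the degradome, in 36 mRNA libraries by tissue, stage and genotype; points are libraries, bars the mean ± SD of 3. The stem points of c140872.graph_c1 (23.8 to 170 CPM) all lie below its leaf points (444.1 to 1050 CPM), and c127171.graph_c2 and c112491.graph_c0 reach at most 1.60 CPM.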

How the data were processed

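Small RNA, mRNA and degradome tables were used as deposited. The counts per miRNA entry and per unigene are whole reads or tags that the authors deposited without normalization, per the file headers. FPKM values per unigene were computed by the authors from those reads and each unigene's length, per the file headers, and serve only for ranks here. Small RNA of 18 to 30 nt was selected, per the labels' protocols. The miRNA database, assembler, aligner and target caller were not given in the sources used here, nor was the meaning of the suffixes x, y and z. Another 32 columns of values per sample (TPM and normalised tags) were not used.

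Counts were tested with edgeR 4.0.16 (R 4.3.3; TMM, filterByExpr, 1 coefficient per group, quasi-likelihood test, Benjamini-Hochberg adjustment over all features tested), stem and leaf apart except where tissues were compared. The SE printed with an edgeR change was derived as the absolute change over the square root of the test's F statistic. DESeq2 1.42.0 was an alternative. Ratios within a library used a pseudocount of 0.5 and permutation tests in SciPy 1.17.1 (Python 3.11.15), within genotype or stage. Simulated counts with known genotype changes were run only through the edgeR fits within a tissue. Tissue, stage and ratio comparisons were not simulated. Named were all entries of the families, their unigenes, and the numbered entry with the highest correlation. Members, lists and tests were chosen with earlier results of these data known. Libraries of the same number showed no pairing on average. The mean correlation of deviations was -0.010 for small RNA (-0.293 to 0.291) and 0.0066 for mRNA (-0.202 to 0.510).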

Additional observations from a re-analysis of the deposited data

Results flagged for a closer look

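For 2 of the unigenes paired with these entries in the degradome, the effect of genotype or stage differed between tissues by a test of the difference itself (edgeR's quasi-likelihood test, Benjamini-Hochberg adjusted over 42119 unigenes). These contrasts were chosen after the values had been seen.

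For c122865.graph_c0 the ROC22 minus GT86-887 difference was 1.26 higher in stem than in leaf on the log2 scale (adjusted p = 5.53e-06). For c140872.graph_c1 the same difference was -0.591 (adjusted p = 0.0342), a call lost without early ROC22 stem library 3 (-0.548, adjusted p = 0.0608).

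The late minus early difference of c140872.graph_c1 was -1.63 in stem relative to leaf (adjusted p = 2.76e-05). For c122865.graph_c0 it was -0.674 (adjusted p = 0.0308), a call lost without late ROC22 stem library 1 or 3, late ROC22 leaf library 2 or early GT86-887 leaf library 3.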

How the results depend on the processing

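Over 945 alternatives other than leaving out a library, 851 kept their direction and side of the threshold, and no called change turned its sign. Log2 changes are given in brackets, by tissue (stem minus leaf), genotype (ROC22 minus GT86-887) or stage (late minus early); the cause of a change in call was not tested. Changed calls of unigenes at 1 stage or in 1 genotype, which are not reported here, are left out.

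With plain library totals in place of TMM, uncalled values turned sign for miR159-z by tissue of ROC22 at late stage (0.41), miR159-y by tissue by stage (-0.13), miR159-x by tissue by stage (-0.064), miR159-z by tissue by stage (-0.33), miR159-x by genotype in stem (0.64), miR159-x by genotype in early stem (0.55), miR159-x by genotype in late stem (0.72), miR159-z by stage in stem (-0.28), miR319-z by stage in stem (-0.69), miR319-y by stage of ROC22 in stem (-0.78), miR159-x by stage of ROC22 in stem (-0.63), miR159-y by stage of GT86-887 in stem (-0.019), c122865.graph_c0 by stage of GT86-887 in leaf (-0.036). Calls were lost for miR159-z by tissue (-0.34), overall and in early ROC22 (-0.23) and early GT86-887 (-0.13), miR159-x by tissue in each condition (-0.96 to -0.76), miR159-y by tissue in late ROC22 (-0.80), miR159-y by stage in stem (0.60) and in ROC22 stem (1.23), miR159-y by genotype in leaf (0.43). Calls were gained for miR319-y by genotype in stem (1.22) and late stem (1.55), miR159-z by genotype in stem (1.57) and early leaf (0.86), miR319-y by stage in stem (-1.12), miR159-x by stage in leaf (-0.65), c122865.graph_c0 by stage in leaf (0.25). By tissue and stage, miR319-y then passed (-1.36, adjusted p = 0.0265). With the replicate number as a block, uncalled values turned sign for miR159-z by genotype in early stem (-0.030), miR159-x by stage of ROC22 in stem (-0.064). Calls were lost for miR159-y by genotype in stem (0.92), miR159-y by stage in stem (1.44) and in ROC22 stem (2.28, adjusted p = 0.0590), miR159-y by genotype in leaf (0.60), miR159-y over miR159-x by stage in stem (1.49), miR159-y over miR159-x by stage in leaf (1.36), miR159-z over miR159-y by stage in stem (-0.90), miR159-z over miR159-y by stage in leaf (-0.68), miR319-y over summed miR159 by stage in stem (-1.20). For the ratios the smallest adjusted p that the block allows is 0.07812. No label says what libraries of the same number share, and the block changed no other call of an entry or ratio. With DESeq2, uncalled values turned sign for miR159-x by stage of ROC22 in stem (-0.00082). Calls were gained for miR159-z by genotype in stem (1.01), miR319-y by genotype in late stem (1.10), miR159-x, miR159-y and miR159-z by genotype in early leaf (0.92, 0.83 and 1.03), miR159-x by genotype in late leaf (0.62), miR159-z by stage in ROC22 stem (1.5), miR159-x by stage in leaf (-0.50) and ROC22 leaf (-0.65), miR319-y by stage in GT86-887 leaf (1.08), c122865.graph_c0 by stage in stem (-0.45). With RLE factors, uncalled values turned sign for miR159-x by stage of ROC22 in stem (-0.00076). Calls were lost for miR159-y by genotype in leaf (0.46). Calls were gained for miR159-z by genotype in stem (1.005), miR159-x, miR159-y and miR159-z by genotype in early leaf (0.92, 0.83 and 1.03), miR159-x by stage in leaf (-0.50), miR319-y by stage in GT86-887 leaf (1.08). With no filter on low counts, uncalled values turned sign for miR159-x by genotype in late stem (0.15), miR159-x by genotype by stage in leaf (0.020). Calls were lost for miR159-y by genotype in leaf (0.44), miR159-z by genotype in leaf (0.73), miR159-y by stage in GT86-887 leaf (0.90), miR159-z by tissue in early GT86-887 (-1.36). Calls were gained for miR159-z by genotype in stem (1.21), miR159-x by stage in leaf (-0.68). With miR166-y and miR396-x left out, uncalled values turned sign for miR159-z by genotype in early stem (-0.0099), miR159-x by genotype in late stem (0.17). Calls were lost for miR159-y by genotype in leaf (0.43). Calls were gained for miR159-z by genotype in stem (1.15), miR319-y by genotype in late stem (1.43), miR159-x and miR159-z by genotype in early leaf (0.91 and 1.01), miR159-z by stage in ROC22 stem (1.80), miR159-x by stage in leaf (-0.57). With near copies summed into each entry, uncalled values turned sign for miR319-z by genotype in stem (-0.40). Calls were gained for miR319-z by stage in stem (1.46), where nearly all summed counts were those of the near copy. With at least 5 tags required in a library, 1 of the 4 degradome pairs was left.

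With each library left out in turn, results whose call or sign changed ranged as follows: miR159-z by tissue of ROC22 at late stage (-0.87 to 0.27), miR319-y by tissue by stage (-0.82 to 0.055), miR319-y by genotype in stem (0.48 to 0.96), miR159-y by genotype in stem (0.72 to 1.30), miR159-x by genotype in stem (-0.29 to 0.035), miR159-z by genotype in stem (0.75 to 1.37), miR319-y by genotype in early stem (-0.10 to 0.36), miR159-y by genotype in early stem (-0.090 to 0.35), miR159-z by genotype in early stem (-0.17 to 0.19). Further ranges with 1 library left out were miR159-x by genotype in late stem (-0.36 to 0.27), miR159-y by stage in stem (1.19 to 1.71), miR159-x by stage in stem (-0.33 to 0.063), miR159-z by stage in stem (0.34 to 0.84), miR319-z by stage in stem (-0.085 to 0.52), miR319-y by stage of ROC22 in stem (-0.051 to 0.78), miR159-x by stage of ROC22 in stem (-0.40 to 0.29), miR159-x by stage of GT86-887 in stem (-0.38 to 0.025), miR319-y by genotype by stage in stem (0.71 to 1.66). Others with 1 library left out were miR159-y by genotype by stage in stem (1.23 to 2.43), miR159-x by genotype by stage in stem (-0.14 to 0.53), miR159-z by genotype by stage in stem (1.46 to 2.72), miR319-z by genotype by stage in stem (-0.054 to 1.40), miR159-y by genotype in leaf (0.24 to 0.64), miR159-x by genotype in leaf (0.64 to 0.98), miR159-z by genotype in leaf (0.53 to 0.98), miR159-y by genotype in late leaf (-0.33 to 0.39), miR319-y by stage in leaf (-0.016 to 0.46). In the same refits the ranges were miR159-x by stage in leaf (-0.64 to -0.46), miR159-z by stage in leaf (-0.0063 to 0.25), c127171.graph_c2 by genotype in early stem (-0.21 to 0.34), c122865.graph_c0 by genotype in middle stem (-0.027 to 0.50), c112491.graph_c0 by stage in stem (0.58 to 0.79), c122865.graph_c0 by stage in stem (-0.63 to -0.38), c127171.graph_c2 by stage in stem (1.09 to 1.58), c122865.graph_c0 by stage in leaf (0.18 to 0.33), c122865.graph_c0 by stage of GT86-887 in leaf (-0.059 to 0.12). For the ratios they were miR159-y over miR159-x by tissue (-0.86 to -0.41), miR159-y over miR159-x by genotype in leaf (-0.38 to -0.14), miR319-y over summed miR159 by genotype in leaf (-0.47 to 0.046), miR319-y over summed miR159 by stage in leaf (-0.54 to -0.015), miR159-y over miR159-x by genotype in stem (0.68 to 1.59), miR159-y over miR159-x by stage in stem (1.14 to 2.05), miR159-z over miR159-y by genotype in stem (-0.024 to 0.23), miR319-y over summed miR159 by genotype in stem (-0.12 to 0.11). Within 1 condition they were miR159-y by tissue in late ROC22 (-2.06 to -0.92), miR159-z by tissue in early GT86-887 (-1.67 to -1.18), miR319-y, miR159-y and miR159-z by genotype in late stem (0.84 to 1.78, 1.33 to 2.51 and 1.48 to 2.73), miR159-y and miR159-z by stage in ROC22 stem (1.81 to 2.92 and 1.07 to 2.20), miR159-x, miR159-y and miR159-z by genotype in early leaf (0.75 to 1.05, 0.65 to 0.96 and 0.85 to 1.25), miR159-x by genotype in late leaf (0.44 to 0.92), miR319-y and miR159-y by stage in GT86-887 leaf (0.49 to 1.15 and 0.74 to 1.53). By tissue and genotype c140872.graph_c1 ranged over -0.76 to -0.55, and by tissue and stage miR159-y over 0.41 to 1.13, c122865.graph_c0 over -0.88 to -0.62 and c127171.graph_c2 over 1.09 to 2.14.

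By tissue and stage, miR159-y passed without late ROC22 stem library 3 (1.13, adjusted p = 0.0196). Late against early in ROC22 stem, edgeR called 15 entries and DESeq2 34. The sparse entries miR319-x and miR319-z were not tested in leaf, and the degradome has 1 library per combination.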
